A study of Mus musculus with 9 samples.

Results

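The genes described here are 10 members of the interleukin-1 (IL-1) family system and of the wider set of epithelial alarmins: the ligands Il33, Il18, Il1a, Il1b, Tslp and Hmgb1, the antagonist Il1rn, and the receptor chains Il1r1, Il1rl1 and Il1rap. They were found by symbol among 27179 counted genes, and all 10 were present. They were chosen by family name with the counts of these 9 libraries already known, that is, selected on readouts of the same contrasts, so their levels are given as a description and carry no p-values. Alarmins are proteins that barrier cells hold ready and release when they are damaged or stressed. IL-33 and IL-1 alpha can act from the nucleus or cytoplasm of a dying cell, IL-18 and IL-1 beta need cutting by the protease caspase-1, TSLP is a secreted cytokine, and HMGB1 is a chromatin protein that signals when it leaves the cell. IL-1 alpha and IL-1 beta bind the receptor encoded by Il1r1, IL-33 binds the receptor ST2 encoded by Il1rl1, and both receptors signal only with the co-receptor encoded by Il1rap.

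RNA was sequenced from luminal epithelial cells of adult mouse mammary gland, sorted into 3 populations with 3 libraries each. All came from tissue carrying PR-cre and a YFP reporter, in which YFP marks cells with a history of progesterone receptor promoter activity, and lineage-positive cells had been gated out of all of them. HR-negative LP were positive for the surface receptor CD14 and negative for YFP, HR-positive LP were positive for both, and ML were CD14 negative. The sample labels call ML YFP positive, whereas the text on the design calls them YFP negative. The group names are the labels' own abbreviations, and no strain, sex or age is given in the labels. The labels do not say whether the libraries of a group came from separate animals, so p-values measure the spread between these libraries, which may be technical.

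Depth ran from 27219103 to 108119756 counts per library. Cd14 stood at 996 to 1180 CPM in HR-negative LP, 284 to 348 in HR-positive LP, then 18.3 to 30.3 in ML, and Pgr, the progesterone receptor gene, at 6.12 to 15.8, 204 to 329 and 276 to 557 CPM. CPM are counts relative to the library total, scaled by TMM factors. The summed level of 7 pan-luminal keratin, claudin and adhesion genes was 13800 to 18600 CPM over all libraries. HR-negative LP replicate 3 stood apart on the second principal component (10.1% of the variance), at 91.6 against -15.8 and -39.5 for replicates 1 and 2. Each library's value is therefore given for each of the 10 genes. For many of the other genes only the mean and SD or the log2 fold change is given.

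Among the ligands, Il33 was near 0 in HR-negative LP and high in the other populations. Il33 (gene ID 77125, chromosome 19, 29925113 to 29960718, mm10) stood at 0.848, 0.686 and 0.716 CPM in the HR-negative LP libraries, at 37.5, 28.0 and 36.5 CPM in HR-positive LP and at 63.3, 54.8 and 74.5 CPM in ML. The 3 groups did not overlap, and every ML library lay above every HR-positive LP library. The mean level was 0.75 ± 0.0861, 34.0 ± 5.23 and 64.2 ± 9.88 CPM (SD, n = 3). On the log2 scale HR-positive LP exceeded HR-negative LP by 5.50 (SE 0.22), and ML exceeded HR-positive LP by 0.92 (SE 0.17) and HR-negative LP by 6.42 (SE 0.22). As linear ratios these were 45.4-fold, 1.89-fold and 85.7-fold. Without HR-negative LP replicate 3 the differences from HR-negative LP were 5.49 and 6.40. In all, 15 of 15910 tested genes (0.0943%) passed an adjusted p of 0.05 as higher in ML when set against HR-positive LP, and Il33 was among them. That number is not stable: it was 4 to 63 when 1 library was left out (4 without HR-positive LP replicate 2, 63 without HR-negative LP replicate 1), 71 with the replicate number as a block, 88 with DESeq2 and 216 with only the libraries of both groups in the fit. Over the alternative fits the log2 fold change of Il33 in this comparison ran from 0.79 to 1.02. Il33 was chosen with this contrast known, so its place among these genes is a description only. In these sorted bulk samples, fewer cells with a transcript and less transcript per cell cannot be told apart.

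Il18 followed the same order at a lower level. Il18 (gene ID 16173, chromosome 9, 50554700 to 50581841) had 0 counts in all HR-negative LP libraries, stood at 2.65, 1.82 and 1.58 CPM in HR-positive LP and at 5.33, 3.77 and 3.13 CPM in ML. The groups did not overlap. Measured against a floor of 3 counts per library, the mean of HR-positive LP (2.02 ± 0.563 CPM) was at least 30.5-fold higher and that of ML (4.07 ± 1.13 CPM) at least 61.5-fold higher than HR-negative LP. The fitted difference of ML from HR-positive LP was a log2 fold change of 1.01 (SE 0.47). Il18 shares its locus with Bco2 and Tex12, and the kit did not mark the strand. Bco2 reached 1.74 CPM at most and Tex12 0.141 CPM.

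The IL-1 ligands proper were near the limit of detection. Il1a (gene ID 16175, chromosome 2, 129299609 to 129310186), which encodes IL-1 alpha, had 0 counts in HR-negative LP and 26, 0 and 0 counts in HR-positive LP. In ML its counts were 41, 11 and 21, or 1.37, 0.234 and 0.494 CPM, at least 10.6-fold higher than in HR-negative LP. Part of this signal cannot be assigned, since 9.14% of the 50-base windows of its annotated transcripts also occur in the overlapping transcript Gm14023, which stood at 0.762 to 1.20 CPM in HR-positive LP and at 1.24 to 1.36 CPM in ML. Il1b (gene ID 16176, chromosome 2, 129364569 to 129371164), which encodes IL-1 beta, had 14, 0 and 0 counts in HR-negative LP, 51, 31 and 50 in HR-positive LP, then 38, 10 and 26 in ML. The HR-positive LP libraries lay close together at 0.486, 0.482 and 0.548 CPM, all above the highest HR-negative LP library at 0.283 CPM, while ML ran from 0.213 to 1.27 CPM and overlapped both. Its log2 fold change was 2.39 (SE 1.47) from HR-negative LP to HR-positive LP, which missed the threshold, and 0.46 (SE 1.37) from there to ML, or -0.30 without ML replicate 1 and -0.20 with the replicate block. The first difference passed with limma voom, at 4.40, and without HR-negative LP replicate 1, the 1 library of its group with counts; HR-negative LP is then at 0, and the fitted size depends on the prior count. Il1b overlaps the antisense transcript Il1bos, which stood at 0 in HR-negative LP and at 0.131 to 0.848 CPM in the other libraries.

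Tslp ran in the opposite direction to Il33 and Il18. Tslp (gene ID 53603, chromosome 18, 32815383 to 32819799) stood at 0.545, 0.901 and 0.608 CPM in HR-negative LP and at 0.200, 0.327 and 0.340 CPM in HR-positive LP, and had 0 counts in every ML library. The groups did not overlap. Against the floor of 3 counts, ML was at least 8.74-fold lower than HR-negative LP and at least 3.69-fold lower than HR-positive LP. These levels rest on 17 to 88 counts per library in HR-negative LP and 21 to 31 in HR-positive LP.

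Hmgb1 (gene ID 15289, chromosome 5, 149046702 to 149053057) differed least between populations. Its level in CPM was 66.3, 46.2 and 54.8 in HR-negative LP, 46.6, 61.1 and 52.0 in HR-positive LP, then 63.1, 62.3 and 59.6 CPM in ML, and all pairs of groups overlapped. The log2 fold change was -0.07 from HR-negative LP to HR-positive LP, 0.21 from HR-positive LP to ML and 0.15 from HR-negative LP to ML, each with an SE of 0.16. In Hmgb1 22.7% of the transcript windows are shared with 132 other genes, among them its pseudogenes, so its count could be split between copies. Il1rn (gene ID 16181, chromosome 2, 24336860 to 24351491), which encodes the IL-1 receptor antagonist, stood at 0.949, 1.38 and 3.69 CPM in HR-negative LP, 0.553, 0.280 and 2.08 in HR-positive LP, then 1.17, 0.234 and 1.51 in ML. Replicate 3 was the highest library of each group, and the groups overlapped. The difference of HR-positive LP from HR-negative LP was a log2 fold change of -1.03 (SE 0.91), and -0.26 without HR-negative LP replicate 3.

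**Figure D1:**
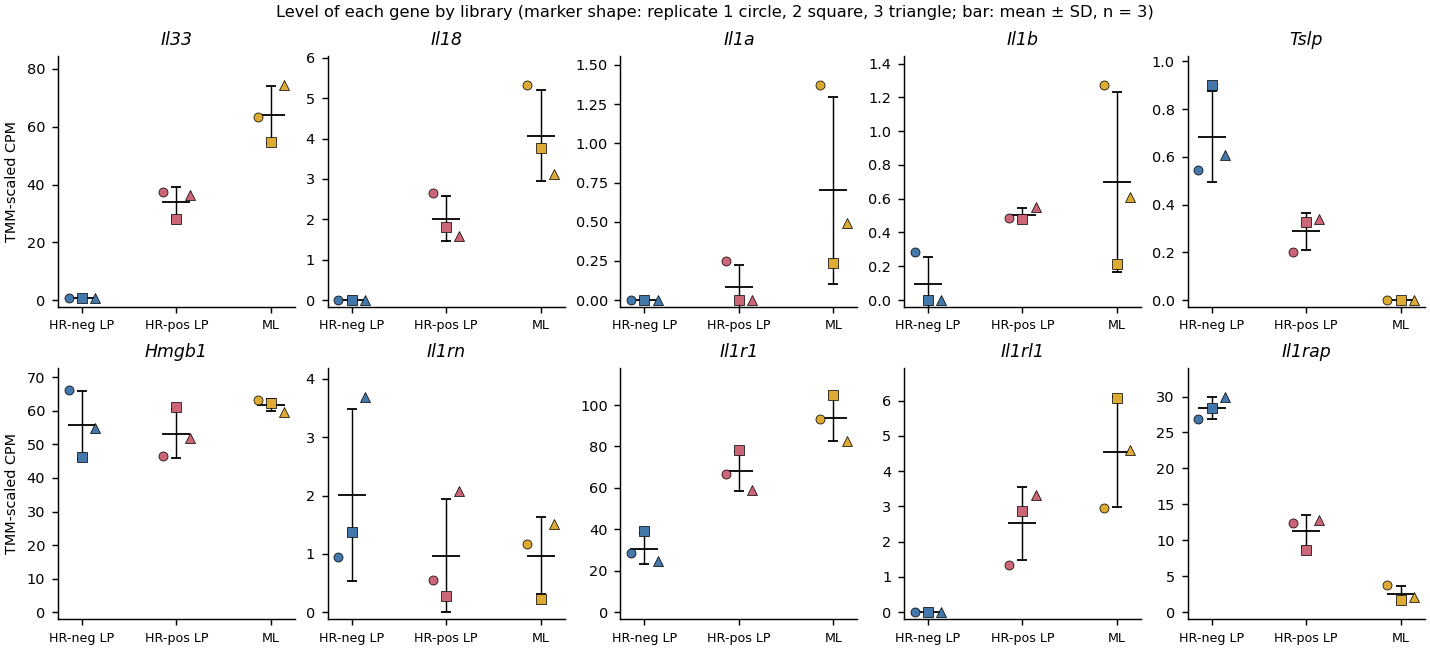
Level of each of the 10 genes in TMM-scaled CPM (vertical axes, linear, each on its own scale) in the 3 libraries of each population, with the mean and SD of each group as bars. The means of Il33, Il18, Il1r1 and Il1rl1 are highest in ML, those of Il1rap and Tslp highest in HR-negative LP, and Hmgb1 lies between 46.2 and 66.3 CPM in all libraries.

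Receptor chains differed as much as ligands. Il1r1 (gene ID 16177, chromosome 1, 40222480 to 40316201) stood at 28.5, 39.1 and 24.5 CPM in HR-negative LP, at 66.7, 78.2 and 59.2 CPM in HR-positive LP and at 93.5, 105 and 82.5 CPM in ML. The groups did not overlap. On the log2 scale HR-positive LP exceeded HR-negative LP by 1.15 (SE 0.19), and ML exceeded HR-positive LP by 0.46 (SE 0.19) and HR-negative LP by 1.61 (SE 0.19). In every group replicate 2 was the highest library and replicate 3 the lowest.

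Il1rl1 (gene ID 17082, chromosome 1, 40404864 to 40465418), the gene of the IL-33 receptor ST2, had 0 counts in the HR-negative LP libraries. It stood at 1.35, 2.88 and 3.33 CPM in HR-positive LP and at 2.95, 6.08 and 4.59 CPM in ML. HR-positive LP (2.52 ± 1.04 CPM) was at least 38.1-fold and ML (4.54 ± 1.57 CPM) at least 68.6-fold higher than HR-negative LP, while the ranges of HR-positive LP and ML overlapped, at a log2 fold change of 0.85 (SE 0.51). ST2 is well known from mast cells, and 5 of 6 mast cell markers (Cpa3, Mcpt4, Tpsb2, Fcer1a and Ms4a2) had 0 counts in all 9 libraries. The remaining marker, Cma1, reached 0.212 CPM at most. The part of mast cells or other leukocytes in the level of Il1rl1 was not tested. Per kilobase of the annotated gene model, Il33 exceeded Il1rl1 in every library in which both were detected, by 26.0 to 74.1 times in HR-positive LP and by 24.1 to 57.5 times in ML.

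Il1rap (gene ID 16180, chromosome 16, 26581509 to 26730128), the shared co-receptor, ran against both receptors. It stood at 26.9, 28.4 and 30.0 CPM in HR-negative LP, at 12.4, 8.67 and 12.8 CPM in HR-positive LP and at 3.72, 1.72 and 2.07 CPM in ML. The groups did not overlap. The log2 fold change was -1.33 (SE 0.27) from HR-negative LP to HR-positive LP, -2.18 (SE 0.29) from HR-positive LP to ML and -3.52 (SE 0.30) over the whole span. The ratio of Il1r1 to Il1rap, both as CPM per kilobase, was 1.79, 2.32 and 1.38 in HR-negative LP, 9.09, 15.2 and 7.82 in HR-positive LP, then 42.4, 103 and 67.1 in ML. Il1rl1 per kilobase lay below Il1rap in HR-positive LP, at 0.133 to 0.405 times its level, and between 0.966 and 4.30 times its level in ML. The counts do not separate the membrane form of the Il1rap product from its soluble form.

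By level per kilobase, Hmgb1 led in each population, at 24.1 ± 4.38, 23.0 ± 3.17 and 26.7 ± 0.788 CPM per kb. In HR-negative LP it was followed by Il1r1 (6.1 ± 1.5) and Il1rap (3.35 ± 0.185), with Il33 at 0.288 ± 0.0331. In HR-positive LP Il1r1 (13.5 ± 1.89) and Il33 (13.0 ± 2.01) followed, closer to each other than their spread. In ML Il33 (24.7 ± 3.79) lay within its spread of Hmgb1, ahead of Il1r1 (18.6 ± 2.24) and Il18 (4.7 ± 1.3). Il1rap was at 0.295 ± 0.126 there, and Tslp at 0.

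Between HR-negative LP and HR-positive LP, 4 of the 10 genes passed an adjusted p of 0.05 as higher in HR-positive LP (Il33, Il18, Il1r1, Il1rl1) and 1 as lower (Il1rap), where 29.9% of all tested genes passed, 17.2% as higher and 12.8% as lower (2731 and 2033 genes, or 3182 and 1535 with scaling by library totals). Between HR-positive LP and ML, 1 was higher in ML (Il33) and 2 were lower (Il1rap, Tslp), where 6.79% passed, 0.0943% as higher and 6.7% as lower, the share of higher genes resting on the 15 genes whose number ranged from 4 to 216 over the other fits. Between HR-negative LP and ML, 5 were higher in ML (Il33, Il18, Il1a, Il1r1, Il1rl1) and 2 lower (Il1rap, Tslp), where 44.6% passed, 23.3% as higher and 21.3% as lower. Libraries did not overlap for 5 genes higher and 2 lower between HR-negative LP and HR-positive LP, against 24.4% and 19.5% of all tested genes, together 43.9%. Between HR-positive LP and ML there were 3 such genes higher in ML and 2 lower, against 10.5% and 16.5%, together 27%. Between HR-negative LP and ML there were 5 higher in ML and 2 lower, against 28.2% and 24.9%, together 53.1%. The genes were chosen with these contrasts known, so nothing is read from these counts. Each population serves in 2 of the 3 comparisons, so the comparisons share libraries. All 10 genes passed the filter on low counts, but Il18, Il1rl1, Il1a and Tslp did so only through the groups in which they were detected. With the replicate number as a block between HR-positive LP and ML, Il1r1 also passed, at a log2 fold change of 0.46, and Tslp did not. Tslp also missed the threshold when any 1 ML or HR-positive LP library was left out, and Il1a between HR-negative LP and ML when any 1 library of either group was left out.

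Promoter windows are shown for the 3 genes with the widest gap between populations, Il33, Il1rl1 and Il18, and for Il1rap, which ran against them, so that the letters upstream of each start can be read beside the levels. RefSeq (GRCm38.p6, the mm10 assembly) had 15 start sites for 9 of the 10 genes, all but Tslp. The 250 bases before each start were searched on both strands for 7 short motifs, none of which contains another: NF-kB (GGGANTTNC), AP-1 (TGANTCA), STAT (TTCNNNGAA), IRF (GAAANNGAA), FOXA (TGTTTAC or TGTTTGC), an estrogen response half-site (AGGTCA) and a steroid receptor half-site (TGTTCT). Bases in capitals are the matches, and all windows are on the plus strand.
Il33, chr19:29924863-29925112: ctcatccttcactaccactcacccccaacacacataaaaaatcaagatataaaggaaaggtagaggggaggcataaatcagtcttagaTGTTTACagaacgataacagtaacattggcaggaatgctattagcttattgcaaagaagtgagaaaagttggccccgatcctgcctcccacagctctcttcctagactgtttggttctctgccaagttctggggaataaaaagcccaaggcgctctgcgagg
Il1rl1, chr1:40439379-40439628: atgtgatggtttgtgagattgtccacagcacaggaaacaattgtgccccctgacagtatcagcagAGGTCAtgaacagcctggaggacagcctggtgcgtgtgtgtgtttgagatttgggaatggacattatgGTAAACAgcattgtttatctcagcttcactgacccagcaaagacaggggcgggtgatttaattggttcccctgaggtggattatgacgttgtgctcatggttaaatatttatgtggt
Il18, chr9:50554450-50554699: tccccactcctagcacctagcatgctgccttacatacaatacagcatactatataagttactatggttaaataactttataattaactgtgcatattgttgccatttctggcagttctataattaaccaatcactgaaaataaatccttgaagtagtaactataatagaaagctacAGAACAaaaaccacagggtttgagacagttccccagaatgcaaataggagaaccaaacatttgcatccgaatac
Il1rap, chr16:26581455-26581704: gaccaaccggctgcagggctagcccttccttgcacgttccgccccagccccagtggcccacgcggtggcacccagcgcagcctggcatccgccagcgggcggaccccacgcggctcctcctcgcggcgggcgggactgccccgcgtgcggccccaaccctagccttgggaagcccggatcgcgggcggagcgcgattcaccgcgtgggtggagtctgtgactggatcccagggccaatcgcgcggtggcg

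A FOXA match stood in the upstream Il33 window, 162 to 156 bases before the start, and in the window of the downstream Il1rl1 start, 117 to 111 bases before it. FOXA matches occur in 7.29% of 32851 such windows of the genome. The same Il1rl1 window held an estrogen response half-site 185 to 180 bases before the start, a motif found in 14% of windows, and the Il18 window a steroid receptor half-site 74 to 69 bases before the start, a motif found in 16.1%. The Il1rap window held none of the 7, nor did the windows of the other Il33 start (chr19:29945540-29945789) and of the other Il1rl1 start (chr1:40429320-40429569). Matches also stood in windows not shown. The window of the Il1rn start at 24336860 held an AP-1 match and an estrogen response half-site. That of Il1a held an AP-1 match, and that of the Il1r1 start at 40266586 a steroid receptor half-site. AP-1 matches occur in 6.75% of windows. None of the 15 windows matched the NF-kB letters, which occur in 3.54% of windows. These matches describe letters and not binding.

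The genes most alike in pattern to the members with the widest gap between group means (Il1rl1, Il18 and Il33) were ranked by Pearson r of log2 CPM over the 9 libraries. For Il33 these were Adarb2, Agps, Snx19, H1f3 and Gsr, with r from 0.9970 to 0.9980. For Il18 they were Ctsr, Tnfrsf9, Smim31, Cacnb3 and Adarb2, and for Il1rl1 Vat1, Iigp1, Tmco3, Plekhg3 and Snap25. The 9 libraries fall into 3 groups, and r exceeded 0.95 for 1018 of 15909 other genes with Il33, for 1059 with Il18 and for 1017 with Il1rl1, so the ranking among them is narrow. None of the 5 remained among the top 5 by Spearman's rho for any of the 3 genes.

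Around the 10 genes, 61 other genes of the pathway were listed, of which 46 passed the filter. From HR-negative LP to HR-positive LP 13 rose and 10 fell by edgeR's quasi-likelihood test, or 28.3% and 21.7% beside the 17.2% and 12.8% of all tested genes, with a median log2 fold change of 0.07 where all tested genes had 0.01. From HR-positive LP to ML 0 rose and 7 fell, or 15.2% beside 6.7% of all tested genes that fell, with medians of -0.01 and 0.01. From HR-negative LP to ML 14 rose and 17 fell, or 30.4% and 37% beside 23.3% and 21.3%, with medians of 0.08 and 0.03. Without HR-positive LP replicate 2 the 23 genes of the first comparison became 14, and the 10 that fell became 5. Over all tested genes 4764 became 3193 in that fit, and the 2033 that fell became 1211. Without HR-positive LP replicate 1 also 5 fell, and without HR-negative LP replicate 2 it was 6. With limma voom 4 genes in place of 7 fell between HR-positive LP and ML. With the replicate block, 10 genes in place of 7 passed between HR-positive LP and ML. Adjusted p-values below are by Benjamini-Hochberg over all 15910 tested genes. The pathway lists were also chosen with earlier results of these data known. Their shares and p-values are therefore a description and no independent test of the lists.

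Of the other receptor chains, 7 were tested. In these, 4 rose and 0 fell from HR-negative LP to HR-positive LP, or 57.1% and 0% beside 17.2% and 12.8% of all tested genes. The same counts held from HR-negative LP to ML, beside 23.3% and 21.3% of all tested genes. Between HR-positive LP and ML 0 passed, beside 6.79%. Il18r1 (chromosome 1, 40465552 to 40500854), which encodes the chain that binds IL-18 and lies next to Il1rl1, stood at 0.262, 3.80 and 1.04 CPM in HR-negative LP, at 53.1, 87.7 and 74.9 in HR-positive LP and at 87.7, 137 and 154 in ML. On the log2 scale it rose by 5.29 in HR-positive LP (SE 0.68, adjusted p = 0.000221). ML exceeded HR-negative LP by 6.10 (SE 0.70, adjusted p = 3.71e-05), and its difference from HR-positive LP was 0.81 (SE 0.55, adjusted p = 0.683). HR-negative LP replicate 2 held 371 counts against 13 and 29 in the other libraries of its group, and without it the differences from HR-negative LP were 6.94 and 7.75. Il18rap, the signalling partner of Il18r1, had 0 counts in HR-negative LP and 0.473 ± 0.157 and 0.901 ± 0.202 CPM in HR-positive LP and ML, at least 7.14-fold and at least 13.6-fold higher.

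Both chains of the TSLP receptor ran opposite to Tslp itself. Crlf2, the chain that binds TSLP, stood at 10.4, 19.6 and 15.4 CPM in HR-negative LP, at 28.2, 31.6 and 34.3 in HR-positive LP and at 39.9, 36.1 and 42.3 in ML. It rose by 1.05 (SE 0.21, adjusted p = 0.00369) in HR-positive LP and by 1.38 (SE 0.21, adjusted p = 0.000329) in ML, both from the level of HR-negative LP. Il7r, its partner and also the interleukin-7 receptor, rose from 0.304 ± 0.251 CPM in HR-negative LP to 5.25 ± 0.789 in HR-positive LP, by 3.97 (SE 0.56, adjusted p = 0.000413), and stood at 8.15 ± 1.01 in ML; the difference was 4.61 without HR-negative LP replicate 2. Sigirr, an inhibitory receptor of the family, stood at 29.3 ± 6.04, 35.5 ± 3.28 and 36.2 ± 2.72 CPM, and Il1rl2, the receptor of the IL-36 ligands, at 4.39 ± 2.45, 6.18 ± 0.831 and 6.07 ± 0.534 CPM, with no comparison past the threshold. When HR-negative LP replicate 1 was left out, Sigirr was past it in HR-positive LP at 0.46 (adjusted p = 0.0285) and in ML at 0.49 (adjusted p = 0.0161), and Il1rl2 between HR-negative LP and ML without HR-negative LP replicate 2 (0.96, adjusted p = 0.0419). Il36a, Il36b, Il36g, Il36rn and Il1f10 had 0 counts in every library.

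**Figure D2:**
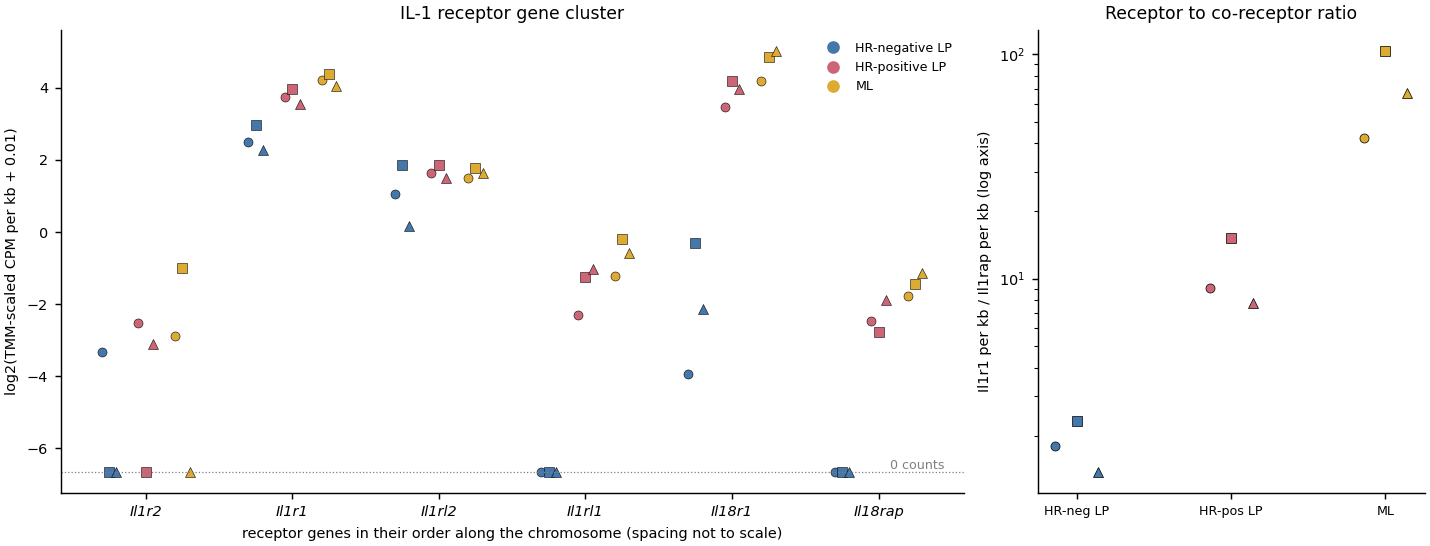
Left, level of 6 receptor genes that lie in a row on chromosome 1, as log2 of TMM-scaled CPM per kilobase plus 0.01, in each library of the 3 populations (circle, square and triangle for replicates 1 to 3); the dotted line marks 0 counts. Right, ratio of Il1r1 to Il1rap per kilobase on a log axis, from 1.38 to 2.32 in HR-negative LP to 42.4 to 103 in ML.

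The cluster on chromosome 1 holds Il1r2, Il1r1, Il1rl2, Il1rl1, Il18r1 and Il18rap in this order. Its genes were not alike in level or in difference. The levels of Il1r1, Il1rl1, Il18r1 and Il18rap were lowest in HR-negative LP. The mean of Il1rl2, which lies between Il1r1 and Il1rl1, was also lowest there (4.39 CPM against 6.18 and 6.07). Its libraries overlapped between groups, and it did not pass in any comparison with all libraries in the fit. Il1r2, the decoy receptor, was at 0 to 0.660 CPM in all libraries, with means of 0.0404, 0.121 and 0.276 CPM and overlapping groups, and did not pass the filter.

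Genes that sense danger and cut the ligands were divided. Of 7 tested, 3 rose and 1 fell from HR-negative LP to HR-positive LP, or 42.9% and 14.3% beside 17.2% and 12.8% of all tested genes. Between HR-positive LP and ML 0 passed, beside 6.79% of all tested genes. From HR-negative LP to ML 4 rose and 2 fell, or 57.1% and 28.6% beside 23.3% and 21.3%. Aim2, a cytosolic DNA sensor that can start an inflammasome, stood at 0.0202, 0.276 and 0.0358 CPM in HR-negative LP, 8.36, 6.47 and 7.28 in HR-positive LP, then 16.7, 15.8 and 19.2 in ML. It rose by 5.68 (SE 0.57, adjusted p = 4.35e-05) in HR-positive LP and by 6.90 (SE 0.59, adjusted p = 3.88e-06) in ML, both from HR-negative LP. HR-negative LP replicate 2 held 27 counts and the other libraries of its group 1 each, and without it these differences were 8.04 and 9.26. From HR-positive LP to ML the log2 fold change of Aim2 was 1.22, without overlap of libraries. That step missed the threshold in the main fit and passed in 5 of 17 alternatives, among them DESeq2 and limma voom. Casp1, the protease that cuts IL-1 beta and IL-18, ran the other way, at 19.3, 17.1 and 4.94 CPM in HR-negative LP, 4.47, 4.78 and 2.25 in HR-positive LP, then 0.871, 0 and 0.447 in ML. Its log2 fold change from HR-negative LP to ML was -5.04 (SE 0.93, adjusted p = 0.00116). Without ML replicate 1 it was -5.97, and with limma voom -6.66. From HR-negative LP to HR-positive LP it was -1.85 (SE 0.78, adjusted p = 0.0981). That step passed with limma voom (adjusted p = 0.00869), with only the libraries of both groups (0.0293), without ML replicate 2 (0.0228) and without HR-negative LP replicate 3, at -2.24 (0.0405). From HR-positive LP to ML it was -3.20 (SE 0.88, adjusted p = 0.0587, or 0.0469 with the replicate block), and it also passed with no filter and without HR-negative LP replicate 3 or ML replicate 1.

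Casp4, a caspase that senses bacterial lipopolysaccharide inside cells, stood at 14.9 ± 1.78 CPM in HR-negative LP and lower, at 7.17 ± 0.978, in HR-positive LP (-1.06 on the log2 scale, SE 0.24, adjusted p = 0.0065). Capn1 and Capn2, which encode calpains, proteases that can cut IL-1 alpha, were higher in HR-positive LP by 1.06 (SE 0.17, adjusted p = 0.000983) and by 0.88 (SE 0.16, adjusted p = 0.00201). In Capn2, 23.5% of transcript windows are shared with Gm37885. Pycard, the inflammasome adaptor, stood at 13.5 ± 2.91, 16.4 ± 2.89 and 20.4 ± 4.59 CPM and did not pass in any comparison. Between HR-negative LP and ML its adjusted p was 0.0599, and it passed with scaling by library totals (0.0311), with DESeq2 (0.0473), with the replicate block (0.0199) and without HR-negative LP replicate 1 (0.0303). In Pycard, 11.7% of transcript windows are shared with Gm45205 and Mvp. The sensors Nlrp1a, Nlrp1b and Nlrc4 had 0 counts in all libraries, and Nlrp3 reached 0.210 CPM.

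Of 18 adaptors and kinases, all of which were tested, 5 rose and 4 fell from HR-negative LP to HR-positive LP, 0 rose and 1 fell from HR-positive LP to ML, and 5 rose and 7 fell from HR-negative LP to ML. The first were 27.8% and 22.2%, beside 17.2% and 12.8% of all tested genes, and the last 27.8% and 38.9%, beside 23.3% and 21.3%. The 1 gene of 18, or 5.56%, between HR-positive LP and ML is near the 6.79% of all tested genes. Peli2, a ubiquitin ligase of the receptor complex, stood at 38.8, 41.3 and 31.7 CPM in HR-negative LP, at 12.4, 11.3 and 10.7 in HR-positive LP and at 0.502, 0.532 and 0.259 in ML, in the same order as Il1rap. On the log2 scale it fell by 1.70 (SE 0.22, adjusted p = 0.000213) from HR-negative LP to HR-positive LP and fell by 4.74 (SE 0.27, adjusted p = 1.17e-06) from there to ML. Tifa, an adaptor that binds TRAF6, stood at 0.748 ± 0.479 CPM in HR-negative LP and rose by a log2 change of 3.01 (SE 0.46, adjusted p = 0.000695) to 6.26 ± 2.36 CPM in HR-positive LP, or by 3.73 without HR-negative LP replicate 2. Irak1 (99.2 ± 9.01, 107 ± 3.40 and 104 ± 3.36 CPM) and Map3k7 (105 ± 15.9, 99.5 ± 10.0 and 99.0 ± 2.42 CPM) did not pass in any comparison. Other genes of this list did. From HR-negative LP to ML, Traf6 passed at a log2 fold change of -0.84, Irak4 at 0.62 and Tab1 at 0.72, with 0 of 17 alternatives changing the call. Myd88 passed at 0.42, which 4 of 17 changed. From HR-negative LP to HR-positive LP these genes passed at -0.48, 0.45, 0.58 and 0.44, and 4 to 6 of 17 alternatives changed each call. Map3k8 passed in that comparison at 1.06 and Peli1 at -0.65, with 0 and 1 of 17 alternatives changing the call. Tollip (-0.40) and Tab2 (-0.27) did not pass there. Both passed from HR-negative LP to ML, at -0.65 and -0.39, which 7 and 9 of 17 changed.

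Among genes known to respond to IL-1 in many cell types, more fell than rose in each comparison. From HR-positive LP to ML this also held for all tested genes. Of 11 listed genes tested, 1 rose and 5 fell from HR-negative LP to HR-positive LP, or 9.09% and 45.5% beside 17.2% and 12.8% of all tested genes. From HR-positive LP to ML 0 rose and 6 fell, or 0% and 54.5% beside 0.0943% and 6.7%. From HR-negative LP to ML 1 rose and 8 fell, or 9.09% and 72.7% beside 23.3% and 21.3%. The median log2 fold changes of the 11 genes were -1.26, -1.22 and -2.48. Lcn2, which encodes an iron-withholding antibacterial protein, stood at 3600, 4110 and 4200 CPM in HR-negative LP, at 860, 1110 and 1310 in HR-positive LP and at 23.3, 2.51 and 24.8 in ML, and fell by 6.02 (SE 0.70, adjusted p = 0.000154) from HR-positive LP to ML. Ptgs2, the inducible cyclooxygenase, fell by 1.75 (SE 0.45, adjusted p = 0.0129) from HR-negative LP to HR-positive LP and fell by 4.09 (SE 0.53, adjusted p = 0.000366) from there to ML. Csf3, which encodes a neutrophil growth factor, fell by 3.62 (SE 0.53, adjusted p = 0.00097) from HR-positive LP to ML, and Cxcl2, a neutrophil attractant, fell by 4.74 (SE 0.72, adjusted p = 0.00135). Without HR-positive LP replicate 3 this last step was -3.40 for Ptgs2 and -4.10 for Cxcl2. With limma voom its adjusted p was 0.11 for Ptgs2, 0.122 for Csf3 and 0.154 for Cxcl2.

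Between HR-negative LP and HR-positive LP the adjusted p of Ptgs2 was 0.0549 and 0.0541 without HR-positive LP replicate 1 and replicate 2, and its log2 fold change was -2.44 without replicate 3. Icam1, a leukocyte adhesion receptor, was the 1 gene of this list that rose, at 22.3, 38.8 and 31.6 CPM in HR-negative LP, 44.7, 84.3 and 105 in HR-positive LP, then 46.6, 88.2 and 103 in ML. It rose by 1.33 in HR-positive LP (SE 0.35, adjusted p = 0.015), and its adjusted p was 0.0505 and 0.0596 without HR-positive LP replicate 2 and replicate 3. In Icam1, 13.1% of transcript windows are shared with 881 other genes. Nfkbiz and Tnfaip3, feedback genes of NF-kB, had log2 fold changes of -0.52 (adjusted p = 0.454) and -0.70 (adjusted p = 0.508) from HR-positive LP to ML, and of -0.53 (adjusted p = 0.0188) and -0.75 (adjusted p = 0.0282) with the replicate block. Zc3h12a and Cxcl1 passed from HR-negative LP to HR-positive LP, at -1.26 and -1.55, which 0 and 1 of 17 alternatives changed. From HR-negative LP to ML they passed at -2.48 and -3.69, which 0 of 17 changed. Cxcl5 did not pass in any comparison and stood at 1.33 and 1.32 in the 2 with HR-negative LP.

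**Figure D3:**
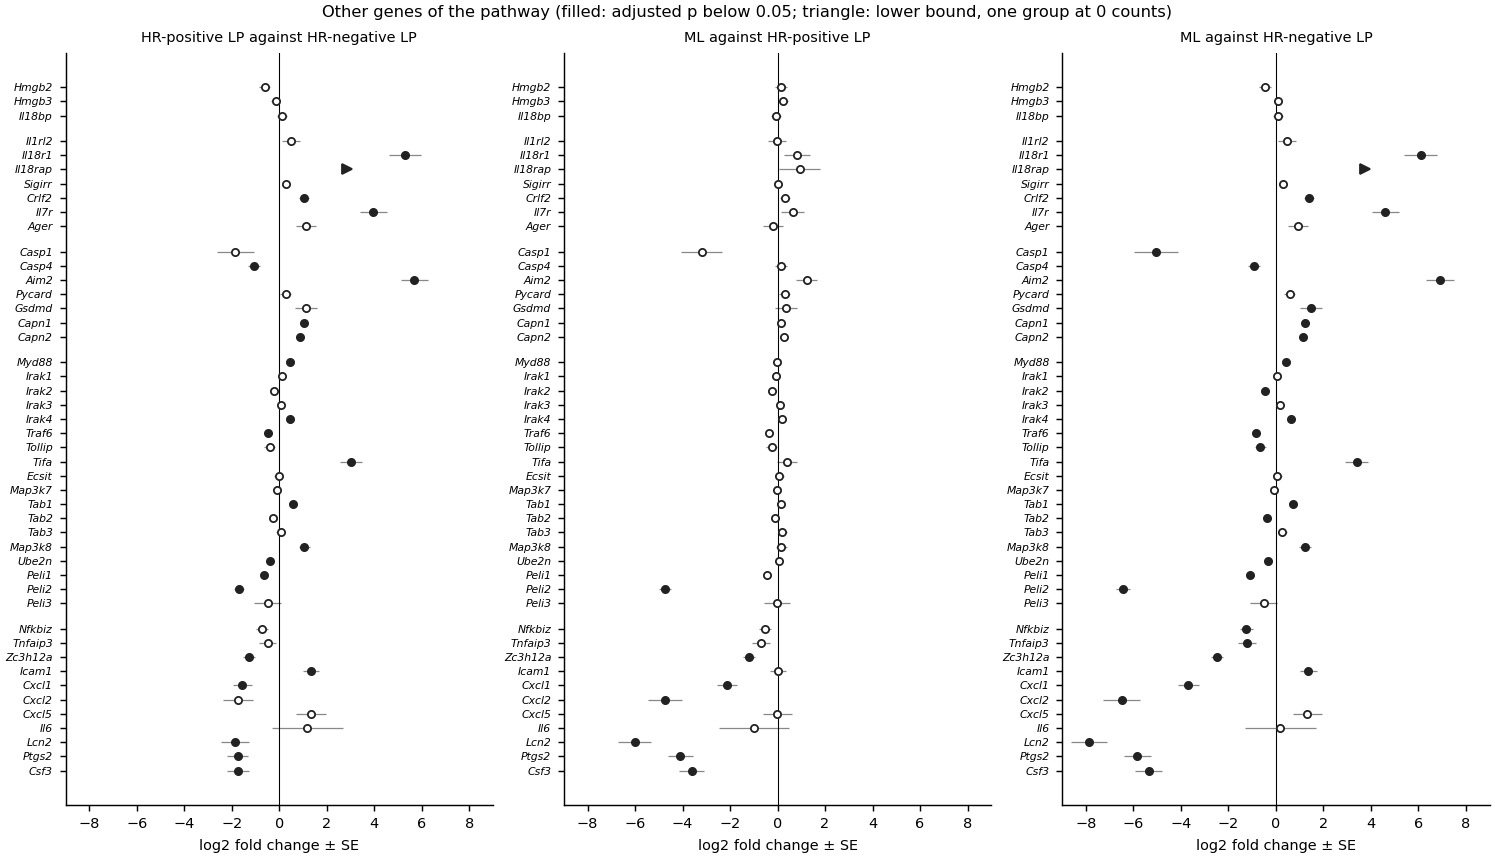
Log2 fold change with its SE (horizontal axes) of the 46 other pathway genes tested, in blocks for other ligands, receptors, inflammasome and processing, adaptors and kinases, and response genes, in each of the 3 comparisons; filled symbols passed an adjusted p of 0.05, and triangles are lower bounds where HR-negative LP had 0 counts. Receptors such as Il18r1 and Il7r lie to the right in both comparisons with HR-negative LP, and response genes such as Lcn2 and Ptgs2 to the left in all 3.

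Several marker lists moved with these genes. The summed level of 13 genes of the dissociation response, immediate early and heat shock genes that handling of tissue can induce, was 33800 to 53600 CPM in HR-negative LP, 28500 to 34400 in HR-positive LP, then 15900 to 23500 in ML. Of these, 8 fell and 0 rose from HR-negative LP to HR-positive LP, 7 fell and 0 rose from HR-positive LP to ML, and 9 fell and 0 rose from HR-negative LP to ML. Of all tested genes, 12.8%, 6.7% and 21.3% fell in these comparisons, and 17.2%, 0.0943% and 23.3% rose. The mean of the sum ran in the order of Lcn2, Ptgs2, Il1rap and Peli2. The heat shock genes Hspa1a (means of 531, 669 and 618 CPM) and Hspa1b (1410, 1930 and 1760 CPM) did not, with means lowest in HR-negative LP and overlapping libraries. The part of this response in these results was not tested.

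Myeloid markers, which could bring IL-1 transcripts, summed to 13.6 to 20.8 CPM in HR-negative LP, 6.52 to 8.85 in HR-positive LP, then 4.42 to 5.89 in ML over 9 genes, in the opposite order to Il1a. Cd68, at 8.67 to 11.4 CPM, and Cd74, at 2.58 to 6.78 CPM, made up most of this sum in HR-negative LP. Ptprc, the gene of the leukocyte antigen CD45, stood at 0 to 0.537 CPM over all libraries, and Adgre1 had 0 counts in HR-negative LP. Itgam ran against the sum and with Il1a. It had 0 counts in HR-negative LP and stood at 0.648 to 1.07 CPM in HR-positive LP and 0.636 to 1.34 in ML. Of the lymphoid markers, 8 genes, the sum was 0.363 to 2.19, 2.41 to 3.41 and 2.14 to 4.61 CPM, and Cd3g and Ms4a1 were among those with 0 counts in all libraries. Il2rg stood at 0 to 0.101, 0.871 to 1.30 and 0.904 to 1.30 CPM, and Trbc2 at 0 to 1.22, 1.31 to 2.07 and 1.24 to 3.18 CPM. Both were lowest in HR-negative LP, as Il7r and Il1rl1 were. Cd79a ran the other way, at means of 0.538, 0.186 and 0.111 CPM. The part of myeloid and lymphoid cells in the levels of Il1b, Casp1, Il7r, Il1rl1 and Il18r1 was not tested.

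Il33 is also made by stromal and endothelial cells. Of 8 endothelial markers, the sum was 7.69 to 14.6 CPM in HR-negative LP, 40.9 to 63.0 in HR-positive LP, then 60.1 to 80.9 in ML, in the order of Il33. Vwf made up 34.6 to 60.3 CPM of it in HR-positive LP, then 53.5 to 75.0 in ML, whereas Pecam1 stood at 2.72 to 3.83, 1.77 to 3.45 and 3.08 to 3.74 CPM, with overlapping groups. Of 9 fibroblast markers, the sum was 78.3 to 132, 169 to 308 and 205 to 361 CPM. From HR-negative LP to HR-positive LP 2 of them rose and 6 fell, where 17.2% and 12.8% of all tested genes did. Dcn and Col6a3 ran up with Il33, to 49.9 to 252 and 39.7 to 120 CPM in HR-positive LP, whereas Pdgfra ran down, from 11.2 to 21.4 CPM in HR-negative LP to 3.17 to 4.96 in HR-positive LP, then 0 to 1.15 in ML. Dcn was highest in replicate 1 of HR-positive LP (252 CPM) and of ML (300.0 CPM), where Il33 stood at 37.5 and 63.3 CPM. The 10 basal markers summed to 57.9 to 103, 38.2 to 57.8 and 33.4 to 52.4 CPM. The part of these cells in the level of Il33 was not tested.

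**Figure D4:**
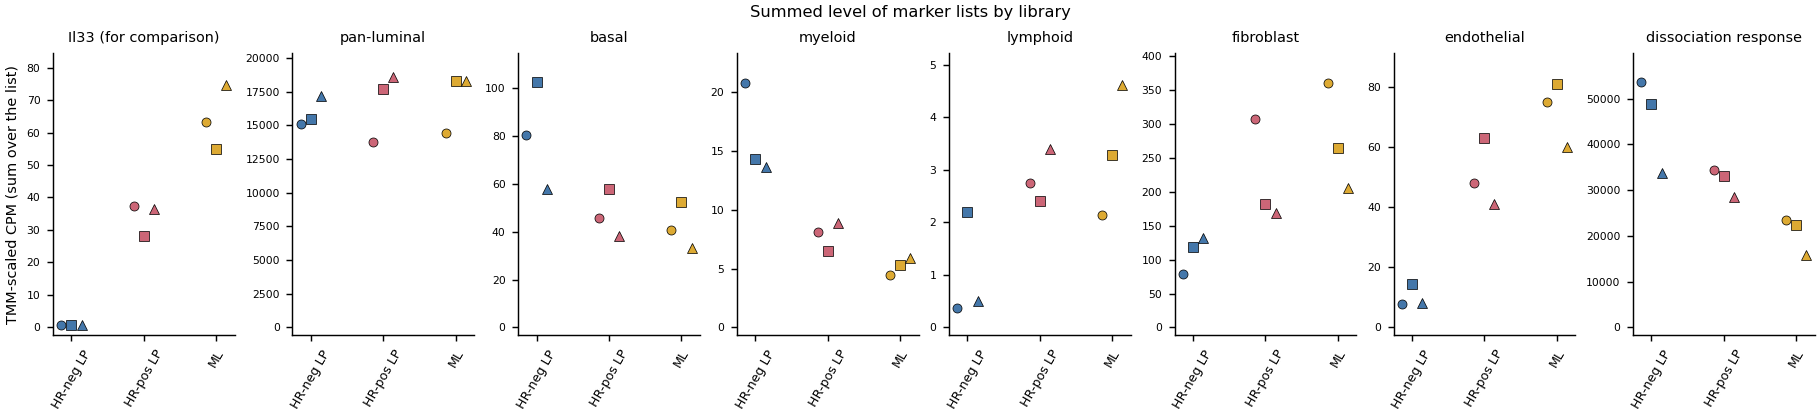
Summed TMM-scaled CPM of marker lists (vertical axes, linear, each on its own scale) by library, with Il33 in the panel at the left for comparison. The endothelial and fibroblast sums are lowest in HR-negative LP, as Il33 is, and the myeloid and dissociation response sums are highest there.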

How the data were processed

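The data are 9 RNA-seq libraries of sorted mouse mammary luminal cells, 3 for each population. Per the labels' protocols, total RNA was extracted with a miRNeasy kit, treated with DNase, and at least 50 ng entered the TruSeq RNA Library Prep Kit v2, which does not mark the strand. Deposited values are raw counts per NCBI gene ID, which the authors made with featureCounts on mm10 per the submitters' processing notes. Aligner, annotation and the rule for multi-mapped reads: not given in the sources used here. The series table and the sample files held the same counts, with 0 cells differing. Of 27179 IDs, 25275 were matched to a symbol in RefSeq.

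The members and lists were chosen with earlier results of these data known. After filterByExpr by group, 15910 genes were left. With TMM scaling, all 9 libraries entered 1 edgeR quasi-likelihood fit (F test) without covariates. Benjamini-Hochberg adjustment covered all of these genes, with a threshold of 0.05, and the procedure was checked on simulated data. The SE was taken from the log2 fold change and the F statistic. Levels are TMM-scaled CPM, and levels of different genes were compared per kilobase of the annotated gene model only. A group at 0 was set to a floor of 3 counts per library to give a bound, which covers counting error only. Pathway genes were named by a rule: up to 4 past the threshold with the smallest p in each role group and comparison, and up to 2 not past it with the highest mean CPM. Genes named outside it, such as Nlrp3, Irak4, Tab1, Myd88, Gm14023 and the values of Casp1 in all comparisons, were chosen after their values were seen.

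Deviations from the group means of same-numbered libraries of HR-positive LP and ML had weak positive correlations of 0.183, 0.121 and 0.189. Correlations of libraries with different numbers were not computed, and the labels give only a replicate number. Whether the numbers pair the libraries is therefore not established, and the main fit has no block. The blocked value is given where it changes a call. Alternatives were DESeq2 size factors, library totals, other filters, DESeq2, limma voom, fits of 2 groups only, the replicate block and leaving out each library. Shared windows are 50-base stretches of GENCODE M21 transcripts found in another gene. After a first motif search, the NF-kB and IRF letters were shortened at their end, and all shares given are for the shorter letters; a window that lacks these cannot match the longer ones. Figures were drawn with matplotlib 3.10.9 in Python 3.11.15. Tests ran in R 4.3.3 with edgeR 4.0.16, DESeq2 1.42.0 and limma 3.58.1.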

Additional observations from a re-analysis of the deposited data

How the results depend on the processing

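With both directions together, the counts of genes past the threshold stayed within 1.5 times the main count under every alternative, for all genes, pathway genes and family members, except for the pathway genes between HR-negative LP and HR-positive LP. That count was 23, and 14 to 26 when 1 library was left out, the 14 without HR-positive LP replicate 2. Split by direction the counts moved further: between HR-positive LP and ML the 15 genes higher in ML were 30 with library totals, 50 with limma voom, 71 with the replicate block, 88 with DESeq2, 216 with only the groups compared and 4 to 63 with 1 library left out, while the 2033 genes lower in the first comparison were 1329 and 1211 without HR-positive LP replicate 1 and replicate 2. The replicate block gave 5463 genes between HR-negative LP and HR-positive LP, 1324 between HR-positive LP and ML and 7609 between HR-negative LP and ML, with 27, 10 and 32 pathway genes and 5, 3 and 7 family members. In the comparisons with HR-negative LP the correlations of same-numbered libraries ran from 0.0254 to 0.147. This range overlaps the 0.121 to 0.189 between HR-positive LP and ML.

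Without HR-negative LP replicate 3, 20, 8 and 30 pathway genes and 5, 3 and 6 family members passed. Of all 16551 genes tested in that fit, 4626, 1173 and 6949 passed. Scaling by library totals moved the median log2 fold change of all genes from 0.01, 0.01 and 0.03 to 0.12, 0.06 and 0.19. Log2 fold changes near 0 changed sign: Map3k7 in ML against HR-negative LP to 0.08 with library totals, Irak1 to -0.01 without HR-negative LP replicate 1, and Il6 to -0.02 with the replicate block and to between -0.57 and 1.92 when 1 library was left out. In ML against HR-positive LP, Hmgb2 ran from -0.02 to 0.29 and Sigirr from -0.04 to 0.10 with 1 library left out, and between HR-negative LP and HR-positive LP Hmgb3 ran from -0.23 to 0.01. None of these genes passed the threshold in the comparison named, and the cause was not tested. Il1b against HR-negative LP rests on 14 counts in HR-negative LP replicate 1. Of the 5 genes most like Il33 and Il1rl1, 3 remained with a prior count of 0.5.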
